A study of Mus musculus with 12 samples.

Results

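The collagen genes are described here across 12 MC38 tumors. They were the rows of the count table whose gene symbol reads Col, a number, a and a number, with a summed count of at least 12 over the 12 tumors. Of 23282 rows, 44 had such a symbol and 40 were kept, of which 11 encode fibrillar chains, 6 encode the type IV chains of the basement membrane and 23 encode other chains. Col19a1, Col20a1, Col22a1 and Col25a1 had summed counts of 5, 0, 6 and 4 and were left out. MC38 is a mouse colon carcinoma line, injected subcutaneously into wild-type female C57BL/6 mice, which were 6 weeks old by the labels and, by the study's methods, were bought at that age and acclimated for 1 week. Tumors were taken on day 19 from 4 groups of 3. Con received saline with DMSO and Tween 80 and a control IgG2a antibody, SFIH received a fraction of Inula helenium root rich in sesquiterpene lactones at 50 mg/kg each day, PD received 200 μg of an anti-PD-1 antibody at each injection, and Comb received both agents. The labels call the material tumor cells, but the RNA was taken from tumor tissue, so stroma and vessels of the host were part of it. The labels number the tumors of a group 1 to 3 without saying that each came from a separate mouse, so p-values measure the spread between these tumors only.

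Collagens are the main structural proteins of the extracellular matrix. Their chains wind into triple helices, either of identical chains or of fixed mixtures such as the Col1a1 and Col1a2 products in type I collagen. Fibrillar collagens assemble into the banded fibrils of connective tissue, type IV collagens form the sheet that underlies endothelium and epithelium, and the other classes coat fibrils, link them to cells, anchor the basement membrane or span the plasma membrane. In tumors, fibroblasts and pericytes are known as main producers of fibrillar collagen, whereas endothelial cells and many carcinoma cells make type IV collagen.

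Between 7870741 and 12261032 reads were counted per tumor, and the level of a gene is given as CPM, its count scaled to a library total of 1000000. Only the 3′ end of a transcript is read in QuantSeq libraries, so CPM was not divided by transcript length. Comb replicate 3 stood apart from the other libraries. It had the lowest TMM factor (0.758, against 0.884 to 1.12 in the others) and the highest summed levels of skeletal muscle, keratinocyte, fibroblast, adipocyte and leukocyte genes, which are given below. Markers of epithelial cells (Epcam, Krt8, Krt18, Krt19 and Cdh1, all 5 found) summed to 2.46 to 20.6 CPM in 11 tumors and 86.8 CPM in Comb replicate 3, so the tumors held little RNA of the defining genes of colon epithelium. In bulk tumor RNA, fewer cells of a type and less RNA per cell cannot be told apart.

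Collagen genes took 0.266% to 0.515% of all counts in the 6 tumors without anti-PD-1 antibody and more than that in 5 of the 6 tumors with it. Con replicates 1 to 3 had a summed collagen share of 0.387%, 0.346% and 0.492%, and the SFIH tumors 0.266%, 0.463% and 0.515%. It was 0.666%, 0.787% and 0.848% in PD, which did not overlap Con or SFIH. In Comb it was 0.412%, 1.08% and 1.51%, so that replicate 1 lay within the range of Con. Col3a1, Col1a2 and Col1a1, the chains of type III and type I collagen, were the most abundant by the mean of the 12 tumors, with 1596, 1541 and 903 CPM. Together these 3 genes gave 33.2% (SFIH replicate 1) to 82.4% (Comb replicate 2) of the collagen counts. Next came Col6a3 with 689 CPM and Col5a1 with 386 CPM. The type IV chains took 0.928% to 8.39% of the collagen counts and the type VI chains 6.84% to 30.3%. The collagen pool of Comb replicates 2 and 3 was therefore made of fibrillar chains to a larger extent (87.8% and 86.3%) than that of any other tumor, where the fibrillar share was 51.5% to 81.5%.

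**Figure D1:**
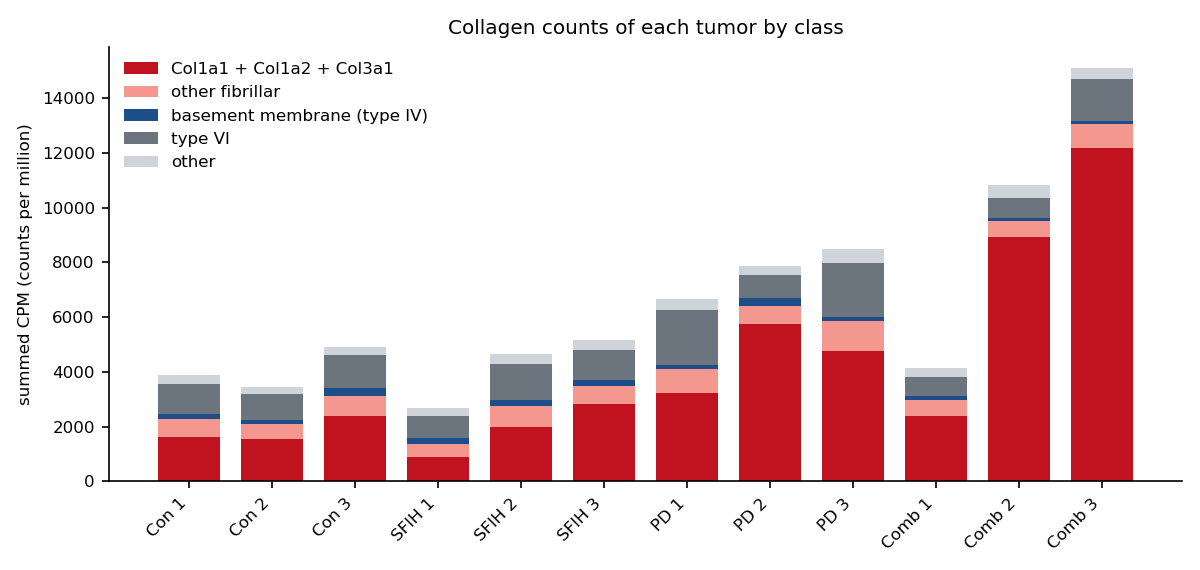
Summed CPM (y axis) of the 40 collagen genes in each of the 12 tumors (x axis), stacked by class. The bars of Comb replicates 2 and 3 are the tallest, through Col1a1, Col1a2 and Col3a1, while the type IV layer stays thin in every tumor.

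The 3 main fibrillar chains and Col5a2, a minor chain that is built into type I fibrils, were higher in the tumors given anti-PD-1 antibody. Col1a1, a chain of type I collagen, was at 373, 298 and 538 CPM in Con, 214, 431 and 553 CPM in SFIH, 855, 1163 and 919 CPM in PD and 467, 1714 and 3305 CPM in Comb. Every PD tumor and 2 of the 3 Comb tumors were above all Con and SFIH tumors. Col1a2, the partner chain in type I collagen, was at 384, 609 and 809 CPM in Con, 287, 686 and 1436 CPM in SFIH, 951, 2861 and 2087 CPM in PD and 1132.5, 4350.0 and 2894 CPM in Comb. All 6 tumors with anti-PD-1 antibody were above all Con tumors, and 4 of them were above SFIH replicate 3 as well. Col3a1, the chain of type III collagen, was at 879, 621 and 1048 CPM in Con, 382, 868 and 819 CPM in SFIH, 1408, 1719 and 1769.8 CPM in PD and 804, 2848 and 5987 CPM in Comb. Again Comb replicate 1 was the only tumor with the antibody within the range of Con. Col5a2 was at 43.2, 55.1 and 58.7 CPM in Con, 35.1, 64.6 and 93.1 CPM in SFIH, 61.7, 164 and 107 CPM in PD and 67.2, 204 and 537 CPM in Comb. It was above all Con tumors in all 6 tumors with the antibody.

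**Figure D2:**
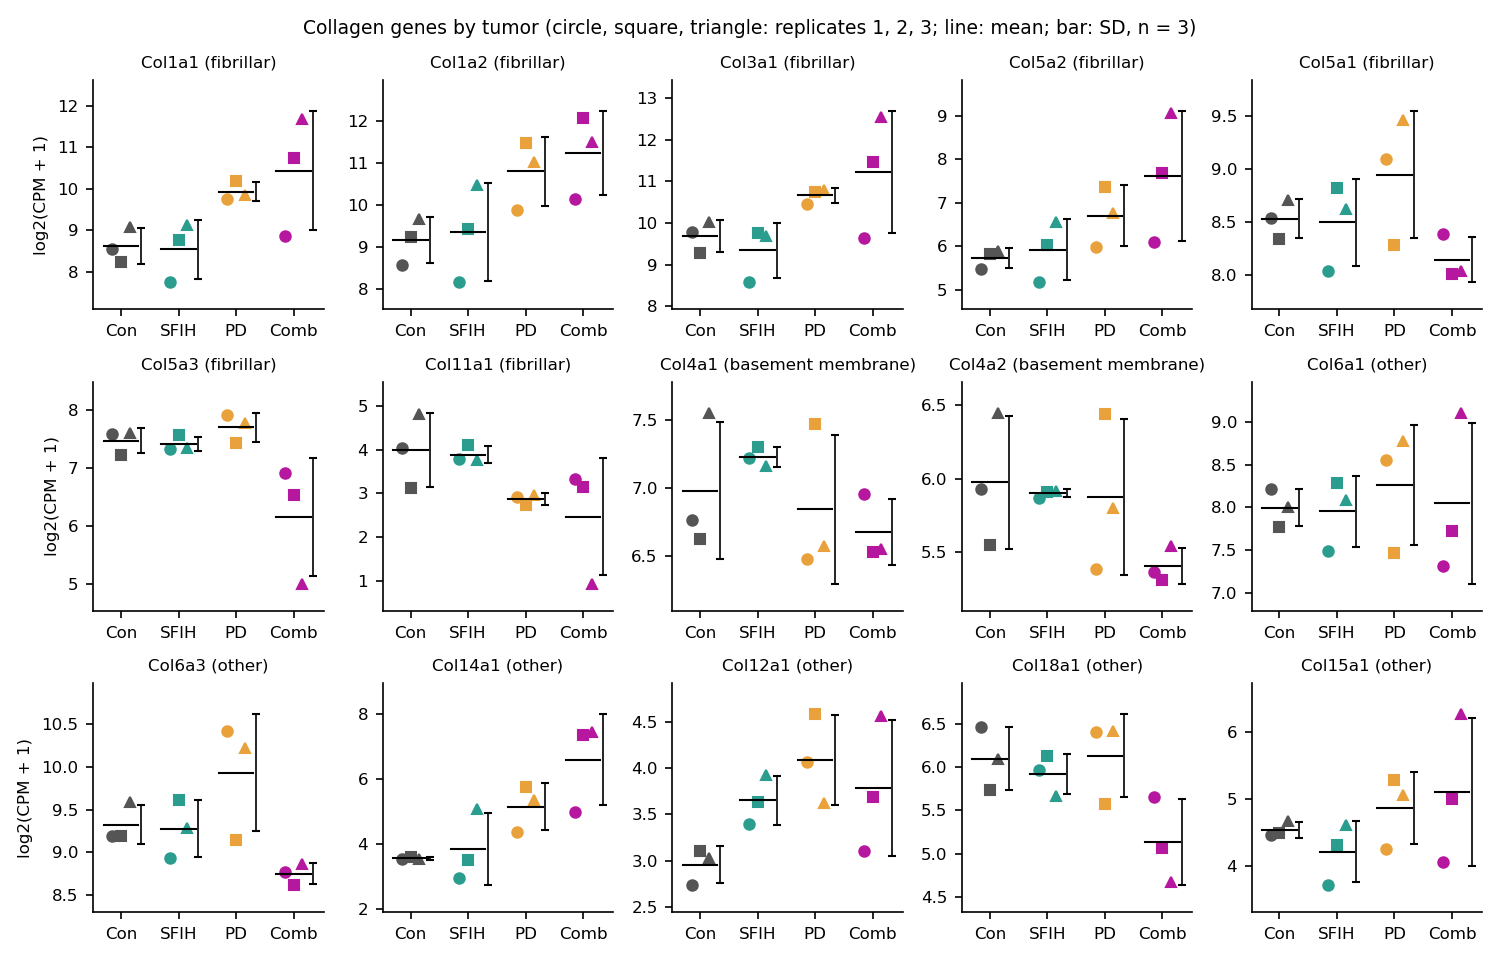
Level of 15 collagen genes as log2(CPM + 1) (y axis, not starting at 0) in each tumor of Con, SFIH, PD and Comb (x axis), with the mean (line) and SD (bar) of 3 tumors. Col1a1, Col1a2, Col3a1, Col5a2 and Col14a1 are higher in PD than in Con without overlap, and Comb replicate 1 lies below the other Comb tumors for each of them.

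PD against Con asks what anti-PD-1 antibody did alone. Of the 40 collagen genes, 29 passed the filter on low counts and were tested among 13464 genes. The fold changes below are those of edgeR after TMM normalization, and the SE after ± is an approximate value derived from its test. The largest was that of Col23a1, a transmembrane collagen, with a log2 fold change of 2.35 ± 0.67 (SE, n = 3 a group) from a low level of 0.365, 1.77 and 2.10 CPM in Con to 8.17, 5.08 and 6.90 CPM in PD. Col14a1, which coats fibrils, followed with 1.90 ± 0.76, then Col6a5, which had few counts (below), Col1a2 with 1.84 ± 0.68, Col8a2, a network-forming chain, with 1.76 ± 0.91 (1.14 without PD replicate 3), Col12a1, another fibril coat, with 1.41 ± 0.48, and Col1a1 with 1.40 ± 0.63. The most negative fitted value was that of Col11a1, a minor fibrillar chain best known from cartilage, at 15.5, 7.70 and 27.2 CPM in Con and 6.56, 5.59 and 6.80 CPM in PD. Its log2 fold change was -1.30 ± 0.59 (-1.64 to -0.83 over the fits without 1 tumor). None of the 29 had an adjusted p under 0.05 in the quasi-likelihood test of edgeR (adjusted p = 0.9998 for each of the genes named), where 0 of the 13464 genes passed (0%), and DESeq2 called 6 genes (0.0446%) and 0 collagen genes. At an unadjusted p under 0.05 there were 6 collagen genes, all higher (Col1a1, Col1a2, Col6a3, Col12a1, Col14a1 and Col23a1), or 20.7% of those tested, against 3.99% of all genes. The groups did not overlap for 7 collagen genes that were higher in PD and 1 that was lower, against 5.76% and 14.8% of all genes. With TMM library sizes the same 8 collagen genes did not overlap, against 9.42% and 9.36% of all genes. The fitted fold change was above 0 in 26 of the 29, with a median of 0.57 against 0.01 over all genes, and the class medians were 0.88 for fibrillar, 0.0072 for basement membrane and 0.73 for other chains. Filtering keeps genes that are high in a single group, so these counts describe the tested genes and not the whole family.

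Comb against Con compares both agents with neither and uses the same Con tumors. Col14a1 was at 10.6, 11.1 and 10.6 CPM in Con, 6.69, 10.3 and 32.8 CPM in SFIH, 19.6, 52.6 and 39.4 CPM in PD and 30.3, 161 and 174 CPM in Comb. Between Con and Comb it differed by 3.86 ± 0.81 on the log2 scale, a 14.5-fold difference, and every Comb tumor was above every Con tumor. The fibrillar chains Col5a2, Col1a1, Col1a2 and Col3a1 differed by 2.77 ± 0.74, 2.58 ± 0.66, 2.55 ± 0.70 and 2.32 ± 0.64 on the log2 scale. The edgeR adjusted p-values of these 5 genes were 0.0665, 0.0686, 0.0671, 0.0718 and 0.0731, in the order named, and no collagen gene passed 0.05, as 0 of all genes did (0%). DESeq2 called 10 of the 29 collagen genes (34.5%), against 14.8% of all genes (1998), of which 12.0% were higher and 2.89% lower. The 9 higher collagens were Col1a1, Col1a2, Col3a1, Col5a2, Col6a5, Col8a2, Col12a1, Col14a1 and Col23a1, and the 1 lower was Col5a3. By edgeR, an unadjusted p under 0.05 was found in 11 collagen genes that were higher and 2 that were lower (44.8%), against 25.3% of all genes (18.0% higher and 7.30% lower). The median log2 fold change was 0.42 over the 29 genes and -0.03 over all genes, with 1.11 for fibrillar, -0.14 for basement membrane and 0.86 for other chains. Without TMM the medians were 0.032 and -0.29, and over the fits without 1 tumor that of the collagens was 0.17 (without Comb replicate 3) to 0.81 (without Comb replicate 1). The counts depended on single Comb tumors as well. Without Comb replicate 1, edgeR called 14 collagen genes and 3943 genes in all, and without Comb replicate 3 it called 0 and 5. In the fit without Comb replicate 3 the log2 fold changes were 1.67 for Col1a1, 2.43 for Col1a2, 1.34 for Col3a1, 1.60 for Col5a2 and 3.39 for Col14a1, and DESeq2 then called 4 collagen genes (Col14a1, Col8a2 and Col6a5 higher, Col5a3 lower) of 740.

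**Figure D3:**
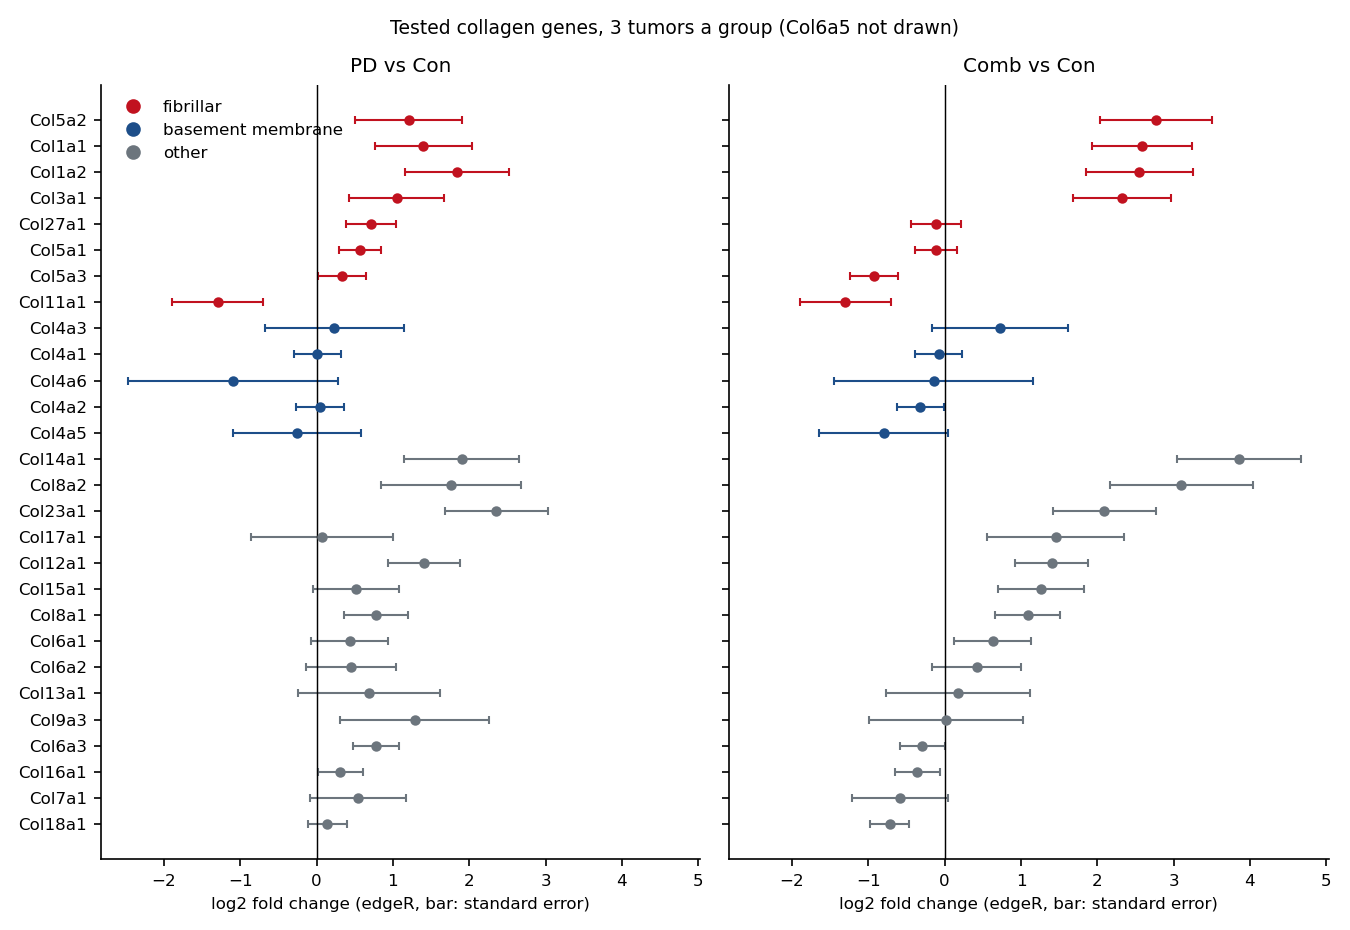
Fitted log2 fold change (x axis) with its approximate standard error for 28 tested collagen genes (y axis, Col6a5 not drawn), for PD against Con and Comb against Con, 3 tumors a group. Col5a2, Col1a1, Col1a2 and Col3a1 lie to the right of 0 in both panels, Col4a1 and Col4a2 lie near 0, Col4a6 is at -1.09 in PD and Col4a5 at -0.80 in Comb, and Col5a3 is to the left in Comb.

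Pooling the 6 tumors with anti-PD-1 antibody against the 6 without it gave the largest groups the design allows. Col1a1 had a median of 1041 CPM (467 to 3305) with the antibody and 402 CPM (214 to 553) without it, and 5 of the 6 tumors were above all others. Its log2 fold change was 1.98 ± 0.46 (edgeR adjusted p = 0.098, DESeq2 adjusted p = 0.00065), and an exact permutation test over the 924 divisions gave a two-sided p of 0.0065 (adjusted over all genes 0.099). The largest fitted value was that of Col6a5, which had few counts in most tumors. Col14a1 came next and had medians of 46.0 and 10.6 CPM and a log2 fold change of 2.54 ± 0.54, with the same exact permutation p. Col8a2 followed with 2.02 ± 0.64 (exact permutation p = 0.039), then Col1a1. After it came Col1a2, Col3a1 and Col5a2 with 1.96 ± 0.49, 1.83 ± 0.45 and 1.83 ± 0.50 (1.24 for Col5a2 without Comb replicate 3), and exact permutation p-values of 0.0087, 0.011 and 0.015. Col11a1 was the gene that was lowest with the antibody relative to the rest, with medians of 6.68 and 14.2 CPM, a log2 fold change of -1.16 ± 0.42 and an exact permutation p of 0.0065. No gene of the 13464 passed an adjusted p of 0.05 in edgeR (0%) or in the exact permutation test. At an unadjusted p under 0.05, edgeR gave 2523 genes (18.7%), with 12 collagens among them (41.4% of those tested). The exact permutation test gave 3317 genes (24.6%) at that limit. By adjusted p, DESeq2 called 1250 (9.28%, and 7.72% higher), 9 collagen genes among them, all higher. These were Col1a1, Col1a2, Col3a1, Col5a2, Col6a5, Col8a2, Col12a1, Col14a1 and Col23a1. Without Comb replicate 3, DESeq2 again called 9 collagen genes of 994, and the exact permutation p-values were 0.0087 for Col1a1, 0.013 for Col1a2, 0.019 for Col3a1, 0.035 for Col5a2 and 0.0087 for Col14a1. That of Col8a2 was then no longer under 0.05. Without Comb replicate 1, edgeR called 12 collagen genes and 2370 genes in all.

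Type V collagen chains and the minor fibrillar chains did not move together. Col5a1, which usually pairs with Col5a2 and starts the assembly of type I fibrils, was at 371, 323 and 417 CPM in Con, 261, 452 and 394 CPM in SFIH, 546, 311 and 703 CPM in PD and 334, 255 and 262 CPM in Comb. The groups overlapped, and Comb differed from Con by -0.11 ± 0.27 on the log2 scale (edgeR adjusted p = 0.80). The ratio of Col5a2 to Col5a1 counts, which does not depend on library size, was 0.201, 0.800 and 2.05 in Comb and 0.113, 0.529 and 0.152 in PD, against 0.116 to 0.171 in Con and 0.134 to 0.237 in SFIH. Its highest value was 18.2 times its lowest. Col5a3, the third type V chain, was at 193, 148 and 194 CPM in Con, 161, 188 and 162 CPM in SFIH, 241, 172 and 218 CPM in PD and 121, 92.1 and 31.2 CPM in Comb. All Comb tumors were below all of the other 9 tumors. The log2 fold change of Col5a3 was -0.93 ± 0.32 from Con to Comb (edgeR adjusted p = 0.11, DESeq2 adjusted p = 0.042) and -1.26 ± 0.32 from PD to Comb (edgeR adjusted p = 0.24, DESeq2 adjusted p = 0.020). Without Comb replicate 3 the difference from Con was -0.59 (edgeR adjusted p = 0.11). Col11a1 had the most negative fitted fold change from Con to Comb among the tested collagens, -1.30 ± 0.59 (-1.64 to -0.82 over the fits without 1 tumor). It was at 9.01, 7.82 and 0.911 CPM in Comb, where 2 of the 3 tumors lay within the range of Con. Col27a1, a fibrillar chain of cartilage, was at 11.7 to 40.4 CPM over the 12 tumors, with -0.11 ± 0.33 from Con to Comb.

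**Figure D4:**
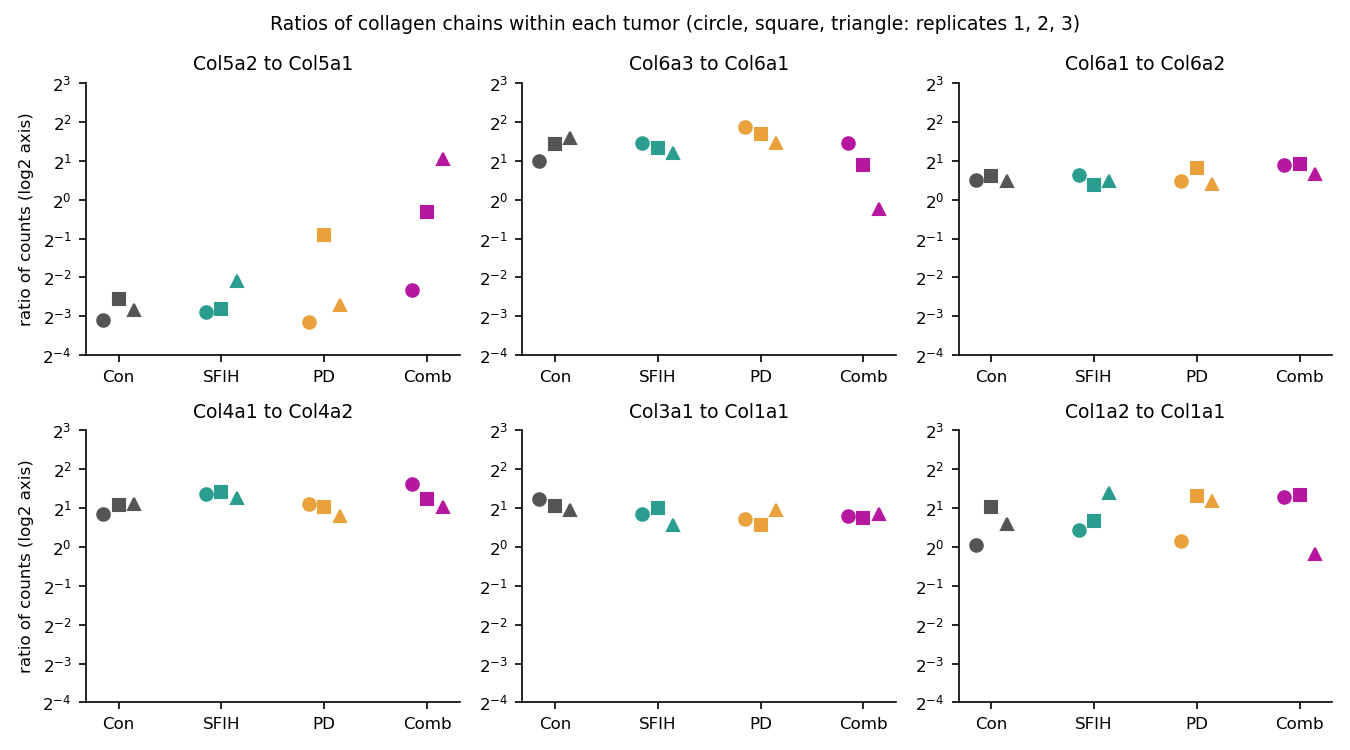
Ratio of the counts of collagen chains within each tumor (y axis, log2 scale) by group (x axis), with a marker shape for each replicate number. Col5a2 to Col5a1 spans 0.113 to 2.05 and Col6a3 to Col6a1 0.843 to 3.67, with Comb replicate 3 at an extreme of both, while Col6a1 to Col6a2 stays between 1.30 and 1.88.

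Other pairs of chains of 1 collagen type varied less between the tumors. The highest ratio was 5.16 times the lowest for Col5a3 to Col5a1, 4.35 times for Col6a3 to Col6a1, 2.96 times for Col1a2 to Col1a1, 1.78 times for Col4a1 to Col4a2 and 1.44 times for Col6a1 to Col6a2. Col3a1 to Col1a1, which belong to different collagens of the same fibrils, had a ratio of 1.48 to 2.36. The ratio of Col1a2 to Col1a1 was 0.876 to 2.60, with the lowest value in Comb replicate 3, whose Comb partners were at 2.43 and 2.54. Col3a1 and Col5a2 are neighbors on chromosome 1 in RefSeq (GRCm38.p6), and Col5a1 and Col5a3 lie on chromosomes 2 and 9. A link between position and level was not tested. The 250 bases before the start of 3 of these genes are shown because their levels went different ways in Comb, and that of Col6a5 because its level differed most between tumors (below). They are from RefSeq, GRCm38.p6, 5′ to 3′ on the strand of the gene: Col3a1 at chr1:45311288-45311537 (plus), Col5a1 at chr2:27886175-27886424 (plus), Col5a3 at chr9:20815068-20815317 (minus) and Col6a5 at chr9:105960644-105960893 (minus). Capitals mark, on either strand, the letters TATAAA of the TATA box, the letters CCAAT of the box of that name and the letters GGGCGG of the GC box.
Col3a1: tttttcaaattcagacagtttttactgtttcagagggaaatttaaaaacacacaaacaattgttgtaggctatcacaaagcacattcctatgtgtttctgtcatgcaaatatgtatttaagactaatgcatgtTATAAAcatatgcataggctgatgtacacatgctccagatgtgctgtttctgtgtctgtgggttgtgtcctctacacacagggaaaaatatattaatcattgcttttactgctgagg
Col5a1: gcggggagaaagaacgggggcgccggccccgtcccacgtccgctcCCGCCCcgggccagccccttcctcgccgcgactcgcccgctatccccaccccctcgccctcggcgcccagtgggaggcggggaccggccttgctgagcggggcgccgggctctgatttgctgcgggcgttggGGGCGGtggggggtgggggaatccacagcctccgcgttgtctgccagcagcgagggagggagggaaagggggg
Col5a3: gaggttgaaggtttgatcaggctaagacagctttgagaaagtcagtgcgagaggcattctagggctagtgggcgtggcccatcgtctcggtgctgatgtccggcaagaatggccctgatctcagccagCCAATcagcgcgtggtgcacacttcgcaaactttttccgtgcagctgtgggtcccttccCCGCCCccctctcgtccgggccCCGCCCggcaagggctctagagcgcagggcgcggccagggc
Col6a5: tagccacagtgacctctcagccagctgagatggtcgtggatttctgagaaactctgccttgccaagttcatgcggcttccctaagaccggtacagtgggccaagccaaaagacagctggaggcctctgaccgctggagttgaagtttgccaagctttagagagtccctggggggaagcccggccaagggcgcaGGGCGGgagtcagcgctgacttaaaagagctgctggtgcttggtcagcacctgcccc
The stretch before Col3a1 had a GC content of 35.2% and a TATAAA that begins 117 bases before the start. Those before Col5a1, Col5a3 and Col6a5 had 76.4%, 62.8% and 58.8% GC and no TATA box letters, with 2, 2 and 1 matches of the GC box, and Col5a3 also had the CCAAT box 122 bases before its start. Of the 40 collagen genes, 32 were in the table of promoters. Among these, 5 (15.6%) held the TATA box letters, 12 (37.5%) the CCAAT box and 20 (62.5%) the GC box letters, against 12.4%, 33.8% and 32.7% of 32851 promoters of the same length. Such a match of letters is a description and not a binding site.

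No type IV chain of the basement membrane was called in any comparison by either tool in the fits of all 12 tumors. Without Comb replicate 1, edgeR called Col4a6 as lower in Comb than in Con and in SFIH and as lower with anti-PD-1 antibody (adjusted p = 0.037, 0.031 and 0.034). Col4a6 had 26, 0 and 0 counts in the Comb tumors, 11, 2 and 19 in the Con tumors, 38, 9 and 7 in the SFIH tumors and 7, 2 and 3 in the PD tumors. Col4a1, the more abundant of the main pair, was at 108, 97.4 and 187 CPM in Con, 149, 157 and 142 CPM in SFIH, 88.2, 176 and 94.4 CPM in PD and 123, 91.0 and 92.6 CPM in Comb. The ranges of all groups but SFIH and Comb overlapped, and SFIH was above Comb in every tumor. Col4a2, its partner in the same triple helix and its neighbor on chromosome 8, was at 59.9, 45.8 and 86.5 CPM in Con, 57.5, 59.2 and 59.5 CPM in SFIH, 40.8, 85.9 and 54.8 CPM in PD and 40.3, 38.7 and 45.7 CPM in Comb. In CPM, Comb lay just below the lowest Con tumor, as 22.2% of all genes did, but with TMM library sizes Comb replicate 3 was at 60.3 CPM and above Con replicates 1 and 2 (57.6 and 44.1 CPM). From Con to Comb the log2 fold changes were -0.08 ± 0.31 for Col4a1 and -0.32 ± 0.31 for Col4a2 (edgeR adjusted p = 0.88 and 0.51). Over the fits without 1 tumor they were -0.24 to 0.22 and -0.52 to -0.089. The ratio of Col4a1 to Col4a2 stayed between 1.72 and 3.06, and the X-linked neighbors Col4a5 and Col4a6 were at 0 to 13.1 CPM and 0 to 3.10 CPM. Col4a5 had no count in Comb replicate 3 and 51 and 61 counts in the other Comb tumors. It had the most negative fold change of all tested collagens from SFIH to Comb, -1.22 ± 0.85 (-1.62 to -0.64 over the fits without 1 tumor). At 10981028 counts, a count of 0 allows up to 0.273 CPM (3 counts). The summed fibrillar counts were 10.9 to 13.7 times those of type IV in Con, 6.15 to 16.8 times in SFIH, 23.8 to 37.5 times in PD and 17.1, 69.9 and 93.0 times in Comb, so the lowest value with anti-PD-1 antibody was above the highest without it.

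Type VI collagen forms beaded filaments between fibrils and cells. Its main chains Col6a1, Col6a2 and Col6a3 were not called from Con to Comb by either tool in the fits of all tumors. Col6a1 and Col6a2, neighbors on chromosome 10, kept a ratio of 1.30 to 1.88. Col6a1 was at 296, 218 and 256 CPM in Con, 178, 312 and 270.0 CPM in SFIH, 375, 175 and 436 CPM in PD and 158, 211 and 551 CPM in Comb. Col6a2 was at 209, 143 and 185 CPM in Con, 115, 239 and 193 CPM in SFIH, 268, 101 and 329 CPM in PD and 85.8, 112 and 351 CPM in Comb. In CPM, Comb replicates 1 and 2 lay below every Con tumor and replicate 3 above for both genes. With TMM library sizes this held for Col6a2, while Col6a1 in Comb replicate 2 was at 238 CPM and above Con replicates 2 and 3 (210.1 and 229 CPM). Their log2 fold changes from Con to Comb, 0.63 ± 0.51 and 0.42 ± 0.59, turned to -0.29 and -0.67 without Comb replicate 3. Col6a3, the long chain of type VI, was at 585, 585 and 769 CPM in Con, 489, 781 and 625 CPM in SFIH, 1374, 567 and 1199 CPM in PD and 436, 392 and 464 CPM in Comb. In CPM, Comb was below every other tumor. With TMM library sizes Comb replicate 3 was at 613 CPM and above Con replicates 1 and 2 (562 and 564 CPM), SFIH replicate 1 (436 CPM) and PD replicate 2 (608 CPM). From PD to Comb the log2 fold change was -1.07 ± 0.30 (edgeR adjusted p = 0.24, DESeq2 adjusted p = 0.044). Col6a5, an alternative to Col6a3 in this molecule, had 6, 226 and 1539 counts in Comb, 1, 15 and 5 in PD, 0, 3 and 4 in Con and 0, 0 and 1 in SFIH. Its neighbor Col6a6 had 3, 18 and 97 counts in Comb, 0, 2 and 2 in PD and none in Con or SFIH, and Col6a4, on the other side of Col6a5, had 3 counts or fewer in every tumor. Col6a5 had the largest fitted increase from Con, SFIH and PD to Comb and is given as counts because the Con and SFIH tumors were near 0. DESeq2 called it in all 3 comparisons (adjusted p = 0.00032, 4.8e-05 and 0.028), and edgeR did not (adjusted p = 0.067, 0.13 and 0.24).

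Among the collagens that coat fibrils, Col12a1 was at 5.66, 7.59 and 7.18 CPM in Con, 9.54, 11.4 and 14.2 CPM in SFIH, 15.7, 23.0 and 11.3 CPM in PD and 7.63, 11.9 and 22.7 CPM in Comb. All 9 treated tumors were above all Con tumors, and the log2 fold change from Con was 0.79 ± 0.47 in SFIH, 1.41 ± 0.48 in PD and 1.40 ± 0.48 in Comb (edgeR adjusted p = 0.9998, 0.9998 and 0.11). The fold change in Comb was 0.71 without Comb replicate 3. Col16a1, of the same class, was at 125 to 148 CPM in Con and 125, 88.4 and 59.5 CPM in Comb. Col9a3 was at 0.297 to 5.96 CPM and had the most negative fold change from PD to Comb, -1.27 ± 0.99 (-0.66 without PD replicate 3). Its annotated 3′ end overlaps that of Tcfl5 on the opposite strand, and the strand used in counting was not stated, so their reads cannot be told apart.

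The multiplexins Col15a1 and Col18a1, which sit at vessel and epithelial basement membranes, had fitted fold changes of opposite sign from Con to Comb. Neither was called there by either tool in the fits of all 12 tumors. Col15a1 was at 21.0, 21.4 and 24.4 CPM in Con, 12.2, 19.0 and 23.4 CPM in SFIH, 18.1, 37.9 and 32.4 CPM in PD and 15.7, 30.9 and 75.9 CPM in Comb, with the highest value in Comb replicate 3. Col18a1, the precursor of endostatin, was at 87.0, 52.2 and 67.1 CPM in Con, 61.7, 68.6 and 49.7 CPM in SFIH, 83.5, 46.8 and 84.2 CPM in PD and 49.5, 32.6 and 24.6 CPM in Comb. The 3 Comb tumors were below all Con and SFIH tumors for Col18a1. From Con to Comb the log2 fold change was -0.72 ± 0.26 for Col18a1 (edgeR adjusted p = 0.12) and 1.26 ± 0.57 for Col15a1 (edgeR adjusted p = 0.19). Without Comb replicate 3 the value for Col15a1 was 0.26.

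Col7a1, which makes the anchoring fibrils below the epidermis, was at 14.7, 7.28 and 19.4 CPM in Con, 19.98, 19.9 and 15.8 CPM in SFIH, 22.4, 8.13 and 26.0 CPM in PD and 16.3, 6.91 and 1.27 CPM in Comb. Col17a1, the collagen of hemidesmosomes in skin, was near the floor in most tumors, with 10, 7 and 40 counts in Comb, 10, 10 and 1 in PD, 11, 5 and 10 in Con and 11, 3 and 6 in SFIH. Its highest tumor, Comb replicate 3, also had the highest keratinocyte markers. The network-forming Col8a1 and Col8a2 were at 24.1 to 84.4 CPM and 0.734 to 15.1 CPM. Col8a2 was at 0.832 to 1.82 CPM in Con and 1.78, 15.1 and 9.02 CPM in Comb, a log2 fold change of 3.10 ± 0.94, or 2.49 without Comb replicate 2 (edgeR adjusted p = 0.083, DESeq2 adjusted p = 0.0068), and Col8a1 differed by 1.09 ± 0.42. Col13a1, a transmembrane collagen, was at 0 to 3.66 CPM. The 11 collagen genes that did not pass the filter were Col2a1, Col11a2, Col24a1, Col4a4, Col6a4, Col6a6, Col9a1, Col9a2, Col10a1, Col26a1 and Col28a1. None of them reached 4 CPM in any tumor except Col6a6, which had 8.83 CPM in Comb replicate 3, and Col24a1 had 33 of its 50 counts in that tumor.

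SFIH against Con asks what the plant fraction did alone. No collagen gene was called between these groups by edgeR or DESeq2. The medians were 0.02 over the 29 collagen genes and 0.02 over all genes, and 15 of the 29 fitted fold changes were above 0. Col1a1 had a log2 fold change of 0.02 ± 0.62, Col1a2 0.48 ± 0.66 and Col3a1 -0.28 ± 0.61, with SFIH replicate 1 the lowest and SFIH replicate 3 the highest tumor of the 6 for Col1a1 and Col1a2. Col12a1 and Col23a1 were the only tested collagens higher in every SFIH tumor than in every Con tumor (7.55% of all genes were), and none was lower in all (8.85% of all genes were). Col23a1 had the largest fitted increase, 0.94 ± 0.66 (0.49 to 1.29 over the fits without 1 tumor). The largest decrease was fitted for Col6a5, whose counts are given above, and the next for Col4a3, a type IV chain of the kidney glomerulus with 0 to 15 counts per tumor and an overlapping antisense transcript, at -0.84 ± 0.93 (-1.53 without SFIH replicate 2). No gene passed in edgeR (0%; 303, or 2.25%, at an unadjusted p under 0.05, 0 of them collagens), and DESeq2 called 4 genes (0.0297%) and no collagen. Without Comb replicate 3, DESeq2 called 65 genes here and again no collagen.

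Adding SFIH to anti-PD-1 antibody is the comparison of Comb with PD, which shares its tumors with the comparisons above. Its collagen differences went both ways, also among the chains of type V and of type VI collagen. The log2 fold changes were 1.18 ± 0.63 for Col1a1, 0.71 ± 0.67 for Col1a2, 1.27 ± 0.62 for Col3a1, 1.57 ± 0.70 for Col5a2 and 1.96 ± 0.75 for Col14a1, and Comb overlapped PD for each of them. They were -1.26 ± 0.32 for Col5a3, -1.07 ± 0.30 for Col6a3, -0.86 ± 0.26 for Col18a1 and -0.69 ± 0.27 for Col5a1, and for Col5a3 every Comb tumor was below every PD tumor, as for 8.42% of all genes. This held for Col6a3 in CPM but not with TMM library sizes (613 CPM in Comb replicate 3 and 608 CPM in PD replicate 2). The median was -0.0045 over the 29 collagens and -0.0029 over all genes. Of the 29, 3 were higher and 6 lower at an unadjusted p under 0.05 (31.0%, against 18.0% of all genes, with 12.9% higher and 5.11% lower), and no gene passed in edgeR after adjustment (0%). DESeq2 called 417 genes (3.10%, with 2.51% higher and 0.587% lower), among them Col6a5 (higher) and Col5a3 and Col6a3 (lower). Without Comb replicate 3 the values for Col1a1, Col3a1 and Col5a2 were 0.27, 0.29 and 0.39, those for Col5a3 and Col6a3 were -0.92 and -1.26, and DESeq2 called 2 collagen genes of 30. The value for Col1a2 was 0.28 to 1.15 over the fits without 1 tumor. Without Comb replicate 1, edgeR called 8 collagen genes of 2100.

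Against SFIH alone, the main fibrillar chains were higher in Comb, with log2 fold changes of 2.61 ± 0.65 for Col3a1, 2.57 ± 0.66 for Col1a1, 2.45 ± 0.73 for Col5a2 and 2.08 ± 0.69 for Col1a2. In each case 2 of the 3 Comb tumors were above all SFIH tumors and replicate 1 overlapped them. These values were 1.62, 1.65, 1.28 and 1.95 without Comb replicate 3, and that of Col1a2 was 2.89 without SFIH replicate 3. Col5a3 had -0.86 ± 0.32, and -0.52 without Comb replicate 3. In CPM, 7 collagens were lower in every Comb tumor than in every SFIH tumor (Col4a1, Col4a2, Col5a3, Col6a3, Col11a1, Col16a1 and Col18a1) and 2 higher (Col4a3 and Col6a5), against 14.9% and 4.65% of all genes. With TMM library sizes these were 6 and 3 collagens, against 8.55% and 7.65% of all genes, and Col4a2 and Col6a3 then overlapped. DESeq2 called 6 collagens (20.7%), all higher, of 1157 genes (8.59%, and 7.84% higher), and edgeR none (0%), with 9 collagens and 2559 genes (19.0%) at an unadjusted p under 0.05. Without Comb replicate 3 the DESeq2 counts were 1 and 94, and without Comb replicate 1 edgeR called 11 collagens of 3117 genes.

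The interaction, which is the difference between the effect of SFIH with and without the antibody, was called for no collagen gene. The largest fitted value was that of Col6a5, whose counts are given above, followed by Col17a1 with 1.90 ± 1.30, and the most negative was that of Col7a1 with -1.55 ± 0.89. Its value was -1.19 ± 0.45 for Col5a3, -1.04 ± 0.42 for Col6a3 and 1.56 ± 0.87 for Col3a1, each with an edgeR adjusted p of 0.89. The values of Col3a1 and Col17a1 were 0.57 and 0.63 without Comb replicate 3, and that of Col7a1 was -2.37 without Comb replicate 1. Of all genes, 0 passed in edgeR (0%; 344, or 2.55%, at an unadjusted p under 0.05, 4 of them collagens) and 1 in DESeq2 (0.00743%). Pooling the 6 tumors with SFIH against the 6 without it gave a log2 fold change of -0.67 ± 0.22 for Col5a3, -0.55 ± 0.21 for Col6a3 and -0.53 ± 0.18 for Col18a1, with exact permutation p-values of 0.028, 0.054 and 0.061 (two-sided, adjusted over all genes 0.29, 0.39 and 0.41). Col9a3 had the most negative value, -0.88 ± 0.70 (-0.021 without Con replicate 1). Col6a5 had the largest, followed by Col14a1 with 1.32 ± 0.52 (0.77 to 1.56 over the fits without 1 tumor). No gene passed in edgeR (0%; 1953, or 14.5%, at an unadjusted p under 0.05), and DESeq2 called 268 genes (1.99%) and no collagen, or 459 genes with Col5a3 and Col6a3 among them without Comb replicate 3.

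The genes that make and process collagen included both higher and lower ones in Comb. Of 29 genes for modification, folding, export, cleavage and cross-linking, 26 were tested and had a median log2 fold change of -0.08 from Con to Comb. At an unadjusted p under 0.05, 6 were higher and 5 lower (23.1% and 19.2%), against 18.0% and 7.30% of all genes. The higher ones were the cross-linking oxidases Lox (3.16 ± 0.90, from 15.9 to 27.7 CPM in Con to 39.5, 96.5 and 321 CPM in Comb), Loxl1 (2.66 ± 0.62) and Loxl2 (1.33 ± 0.57), the procollagen protease Adamts2 (3.63 ± 0.79), Pcolce2, an enhancer of such cleavage (1.26 ± 0.41), and the prolyl isomerase Ppib (0.54 ± 0.22), which acts in the endoplasmic reticulum. The lower ones were the prolyl hydroxylase subunits P4ha1 (-0.66 ± 0.21), P4ha2 (-1.29 ± 0.26) and P4hb (-0.60 ± 0.17), the lysyl hydroxylase Plod3 (-0.58 ± 0.24) and the export factor Mia3 (-0.63 ± 0.23). P4ha2 was at 92.0 to 131 CPM in Con and 25.7 to 49.5 CPM in Comb. Serpinh1, the collagen chaperone, was at 168 to 261 CPM in Con and 247 to 277 CPM in Comb. No gene of the list had an edgeR adjusted p under 0.05, and DESeq2 called 4 as higher and 3 as lower, against 12.0% and 2.89% of all genes.

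Of 10 collagen receptors, 8 were tested, with a median of -0.06. Lair1, an inhibitory receptor of leukocytes, was at 11.3 to 27.6 CPM in Con and 29.5, 69.3 and 96.7 CPM in Comb (2.08 ± 0.47, edgeR adjusted p = 0.067, DESeq2 adjusted p = 0.00060), and the fibroblast integrin Itga11 was at 0.0998 to 0.832 CPM and 0.0991, 3.86 and 18.0 CPM. The receptor kinase Ddr1 and the integrin chain Itgb1 were lower at an unadjusted p under 0.05, by -1.37 ± 0.57 and -0.47 ± 0.18. Of 14 genes listed as fibril-associated matrix, 9 were higher at an unadjusted p under 0.05 and none lower, with a median of 2.10. They included the small proteoglycans Lum (4.85 ± 1.07) and Bgn (2.86 ± 0.70) and the fibroblast matrix protein Postn (4.16 ± 0.94, at 35.4 to 65.2 CPM in Con and 66.3, 411 and 1473 CPM in Comb). Of 13 tested partners of type IV collagen, 3 were higher (Lama2, Nid1 and Sparcl1) and 1 lower (Agrn) at the same limit, with a median of -0.06. These lists were described only for Comb against Con, where 18.0% of all genes were higher and 7.30% lower at that limit. Values without Comb replicate 3 are not given for them. Dcn of the matrix list, for instance, was at 477, 1267 and 4512 CPM in Comb and 418 to 908 CPM in Con.

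Marker genes of host cells were summed in each tumor. The summed level of 9 fibroblast genes, which include Dcn and Lum of the matrix list, was 700.4, 1748 and 5907 CPM in Comb and 763 to 1203 CPM in PD, against 660.1 to 1123 CPM in Con and 357 to 778 CPM in SFIH. Dcn gave most of this sum in Con, at 487, 908 and 418 CPM. In PD against Con, the fitted fold change was above 0 for 8 of the 9 genes, with a median of 0.52. Dpt and Thy1 were higher in every PD tumor than in every Con tumor (5.76% of all genes were), but no gene of the list had an unadjusted p under 0.05. All 9 were found, and 6 of them were higher in Comb than in Con at an unadjusted p under 0.05 (18.0% of all genes were), whereas Pdgfra, Pdgfrb and Twist2 had fold changes of -0.27, -0.74 and -0.48. The 7 pericyte and smooth muscle genes summed to 33.1 to 46.7 CPM in Con and were higher in every other tumor, with 58.0 to 97.0 CPM in SFIH, 57.3 to 117 CPM in PD and 70.3, 136 and 138 CPM in Comb. The 7 endothelial genes summed to 75.4 to 124 CPM in Con, 83.6 to 116 CPM in PD and 97.8, 150 and 138 CPM in Comb. Tissue around a tumor can carry collagen as well. The 11 skeletal muscle genes summed to 752, 5.49 and 5776 CPM in Comb, 154 CPM in PD replicate 1 and at most 54.1 CPM in the other 8 tumors. In Comb replicate 2, 5 of the 11 had no count (Myh1, Myh2, Tnnc2, Actn3 and Pvalb) and the other 6 had 3 to 17 counts. The 8 adipocyte genes summed to 73.8, 426 and 993 CPM in Comb and 71.1 to 92.9 CPM in Con, and Plin1 and Lep were at 0 in Comb replicate 1. The 8 keratinocyte genes summed to 339 CPM in Comb replicate 3, 29.9 CPM in SFIH replicate 1 and at most 6.13 CPM in the other tumors, where Lor was at 0. The 5 leukocyte genes summed to 108 to 217 CPM in Con, 218 to 378 CPM in PD and 221, 459 and 1013 CPM in Comb. The part of these cell types in the collagen differences was not tested. The fibroblast sum and the sum of Col1a1, Col1a2 and Col3a1 put the 3 tumors of a group in the same order in SFIH and Comb and in different orders in Con and PD.

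**Figure D5:**
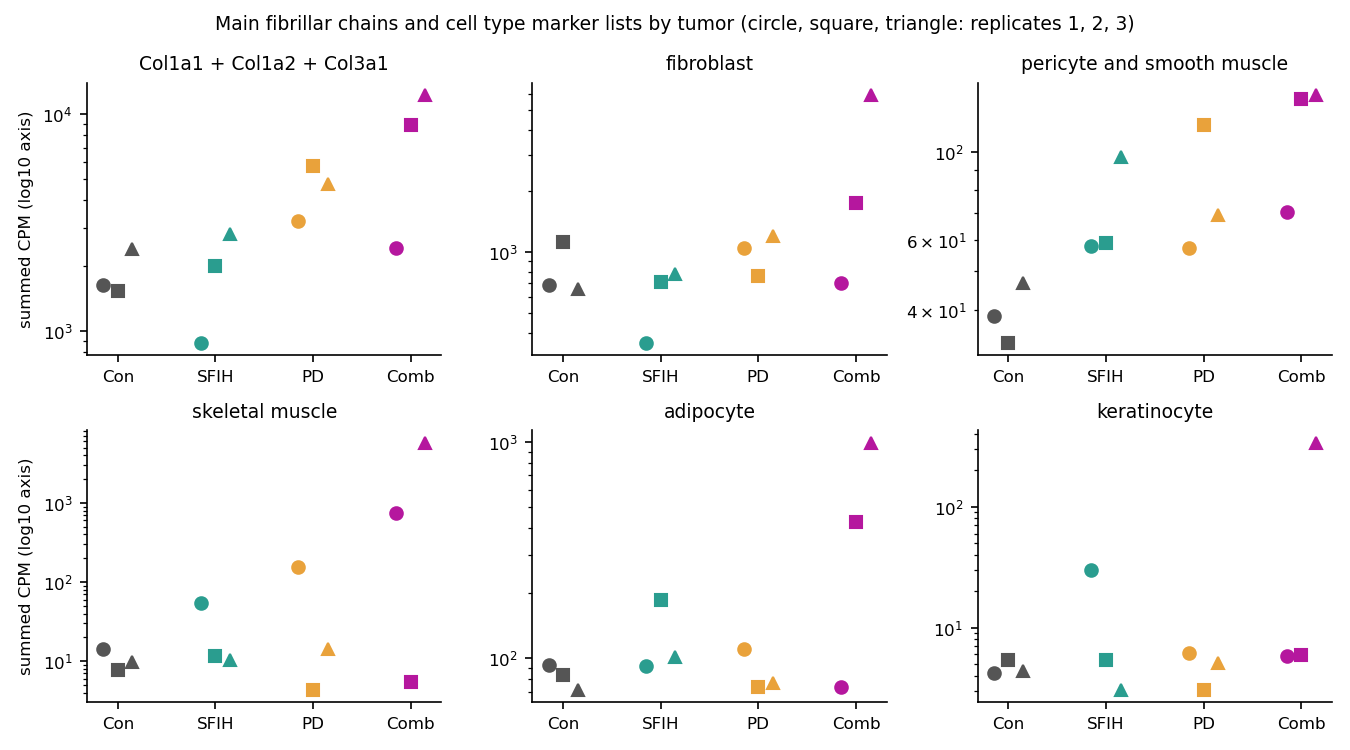
Summed CPM (y axis, log10 scale) of Col1a1, Col1a2 and Col3a1 and of 5 marker lists in each tumor by group (x axis), with a marker shape for each replicate number. Fibroblast genes span 357 to 5907 CPM with Comb replicates 2 and 3 highest, and skeletal muscle genes are at 5.49 CPM in Comb replicate 2.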

How the data were processed

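RNA of 12 MC38 tumors had been sequenced as QuantSeq 3′ mRNA-Seq libraries on a NextSeq 500 instrument, with single-end reads of 75 bp. The authors deposited a table of raw counts per gene symbol, 1 column for each tumor, and the columns were matched to the groups by their names. How reads were aligned and counted, the build and the strand setting are not given in the sources used here. Counts were whole numbers of reads and not of molecules, so the floor of 3 counts covers counting error only. The ± values include the spread between tumors.

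Genes were filtered with filterByExpr, normalized by TMM and tested in R 4.3.3 with the quasi-likelihood test of edgeR 4.0.16, in a single fit of all 12 tumors with 4 groups, for 8 contrasts. The value after ± is an approximate standard error. It is the size of the log2 fold change divided by the square root of the F statistic of that test. DESeq2 1.42.0 was the alternative, since the study names it without saying which tool compared the tumors. P-values are two-sided and were adjusted over the 13464 tested genes by the Benjamini-Hochberg method and compared with 0.05. Exact permutation tests used log2(CPM + 1), and 3 tumors against 3 cannot give a p under 0.1. On simulated counts for Comb against Con with 200 of 13464 genes changed 4-fold, 67% of the changed genes were recovered by edgeR (9 false calls) and 74% by DESeq2 (31 false calls). The simulation gave all genes the same spread between tumors, changed only genes with higher counts and held no outlying tumor. These shares therefore check the code and do not give the power in the real tumors.

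The collagen genes and all gene lists were chosen with earlier results of these data known, so no list is independent evidence. Values in every tumor are given for the main collagens (Col1a1, Col1a2, Col3a1, Col5a1, Col5a2, Col4a1, Col4a2, Col6a1, Col6a2, Col6a3, Col12a1, Col14a1, Col15a1, Col18a1, Col7a1 and Col17a1). The tested collagen with the largest fold change in each direction is named per contrast, in some cases with a range of levels or the levels of some groups only. Other collagens named were chosen after their values were seen. Promoters were taken from RefSeq. The fits without Comb replicate 3 by DESeq2 and by permutation were added after the data were seen. Comparisons that share a group share its tumors. Tables were made with pandas 2.3.3 and numpy 2.4.6 and figures with matplotlib 3.10.9, under Python 3.11.15.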

Additional observations from a re-analysis of the deposited data

How the results depend on the processing

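In edgeR, no collagen gene was called in any of the 8 contrasts, and this held without TMM, with upper-quartile normalization, with other filters and, for the 5 contrasts of 2 groups, in fits of those groups alone. DESeq2 called 10 collagen genes of 1998 for Comb against Con, 3 of 417 for Comb against PD, 6 of 1157 for Comb against SFIH, 9 of 1250 for any anti-PD-1 antibody, and none of 6, 4, 268 and 1 for PD against Con, SFIH against Con, any SFIH and the interaction. Without the tumor Comb 3, the DESeq2 counts were 4 of 740, 2 of 30, 1 of 94 and 9 of 994 for the former, and 1 (Col12a1) of 68, 0 of 65 and 2 of 459 for PD against Con, SFIH against Con and any SFIH. Leaving out each tumor in turn, edgeR called 0 to 14 collagen genes of 0 to 3943 for Comb against Con, 0 to 8 of 0 to 2100 for Comb against PD, 0 to 11 of 0 to 3117 for Comb against SFIH, 0 to 12 of 0 to 2370 for any anti-PD-1 antibody and none of 0 to 281 for any SFIH. The highest count came without Comb replicate 1 in each of these, and without Comb replicate 3 edgeR called 5 and 2 genes for Comb against Con and any anti-PD-1 antibody. The cause was not tested.

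The median log2 fold change of the collagen genes was 0.17 to 0.81 for Comb against Con, -0.081 to 0.96 for Comb against SFIH and -0.32 to 0.15 for the interaction over the fits without 1 tumor. Without TMM these medians were 0.032, 0.18 and -0.37, and that for Comb against SFIH was -0.058 in DESeq2 without Comb 3. Direction changed for Col6a1 (-0.29, and -0.27 in DESeq2) and Col6a2 (-0.67, and -0.65 in DESeq2) without Comb replicate 3, for Col4a1 (0.22) and Col27a1 (0.043) without Con replicate 3, and for Col27a1 in DESeq2 without Comb 3 (0.012), all for Comb against Con and with an adjusted p of 0.376 or more. Over the fits without 1 tumor these values spanned -0.29 to 1.001 for Col6a1, -0.24 to 0.22 for Col4a1 and -0.26 to 0.043 for Col27a1, and those of Col4a6, at 0 in 2 Comb tumors, spanned -6.33 to 0.53 for Comb against Con and -6.86 to 0.30 for Comb against SFIH (0.41 for Comb against Con in DESeq2 without Comb 3). For SFIH against Con it changed for Col1a1 (-0.013 without TMM, -0.15 with the replicate block, -0.021, -0.15, -0.0037 and -0.37 without Con replicate 1, Con replicate 2, SFIH replicate 2 and SFIH replicate 3), Col1a2 (-0.36 without SFIH replicate 3) and Col3a1 (0.017 without SFIH replicate 1), with spans of -0.37 to 0.33, -0.36 to 0.89 and -0.50 to 0.017. In exact permutation tests, Col12a1 (any anti-PD-1 antibody) and Col18a1 (any SFIH) came under 0.05 with TMM library sizes, at p = 0.041 and 0.043, and Col8a2 (any anti-PD-1 antibody) had p = 0.071 without Comb 3.

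Replicate numbers do not pair the tumors by any label. Correlations of the deviations of same-numbered tumors were -0.29 to 0.41. For 3 of 12 tumors the mean correlation with tumors of their own number was above that with either other number. A fit with the replicate block called 0 genes in each contrast. Genes with few counts, such as Col17a1 and Col4a3, are limited by depth.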
